A study of Mus musculus with 32 samples.

Results

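Dio3 and 4 other genes of the imprinted domain that it closes, Dlk1, Meg3, Rian and Mirg, were followed across 32 mouse tumours. They were taken by symbol, as 5 of the 55103 rows of the deposited table, and all 5 passed the filter on low counts. Dio3 was chosen because it was high in the photon controls only, so its levels are given as a description with no test. The other 4 were chosen by their place in the domain, and Dio3 is left out of every count below.

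The libraries were made from tumours of KPC36, a line of malignant cells from a mouse model of pancreatic ductal adenocarcinoma, and were sequenced as stranded mRNA libraries. Each of 4 groups held 8 libraries: tumours given photons (the usual form of radiotherapy), the untreated controls of that arm, tumours given carbon ions (charged particles that deposit most of their energy at the end of their path), and the untreated controls of that arm. Irradiated and control tumours were collected 4 and 7 days after treatment, but the day of a library, the dose, the strain, age and sex of the mice and the genotype of the line are not given in the sources used here. Nothing says which libraries came from separate animals, so p-values measure the spread between these libraries.

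The libraries held between 13891863 and 71645903 estimated counts. Titles begin with D in 7 libraries, 4 carbon-ion controls and 3 carbon-ion-irradiated, and with M in the other 25, with no stated meaning. No title number of a photon control falls in the range of those of the photon-irradiated libraries, so an order of collection or handling, if the numbers mark one, cannot be told apart from photon treatment. Levels are given as CPM, the estimated counts relative to the TMM-scaled total of the library. On this scale the sum of 20 skeletal muscle genes was 38.4 to 6060 CPM in photon controls and 20.8 to 1420 CPM after photons, with highest values of 5861 CPM among the untreated and 9711 CPM among the irradiated tumours of the carbon-ion arm. All 10 epithelial markers were measured, while the islet genes Ins1, Ins2 and Neurod1 and the acinar gene Ptf1a were at 0 in every library. Since these are bulk samples, fewer cells of a type and less RNA per cell cannot be told apart in any result below.

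Dio3 encodes the type 3 deiodinase, the enzyme that inactivates thyroid hormone by removing an iodine from its inner ring. It is mainly a fetal and placental gene and is known to return in some tumours, in wounds and in regenerating tissue. The domain lies between Dlk1 and Dio3, and its parental copies differ: Dlk1, Rtl1 and, in part, Dio3 are expressed mainly from the paternal chromosome, and the non-coding RNAs Meg3, Rian and Mirg from the maternal one. Dlk1 encodes a membrane protein related to Notch ligands that is known from preadipocytes and other progenitor cells. Rian is a host of box C/D small nucleolar RNAs, and Mirg is a host of a large cluster of microRNAs.

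By the GENCODE annotation of GRCm38, the build that the submitters' processing notes call mm10, the genes lie on chromosome 12. Dlk1 (chr12:109452823-109463336), Meg3 (chr12:109541001-109571726), Rian (chr12:109603940-109661716), Mirg (chr12:109729764-109749460) and Dio3 (chr12:110279068-110281097) are on the plus strand. Dio3 is a single exon of 2030 bases. Rtl1 (chr12:109589193-109600330), between Meg3 and Rian, and Dio3os (chr12:110275385-110278172), beside Dio3, are on the minus strand. From the end of Dlk1 to the start of Dio3 the domain spans 815.9 kb.

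The windows from 250 bases before to 50 bases after the RefSeq starts (GRCm38.p6, plus strand) of Dio3, Meg3 and Rian are shown because Meg3 and Rian varied together between tumours, while the r of Dio3 with them did not pass the test. The GENCODE start of Dio3, at 110279068, lies inside its window, so most of that window is exon in that annotation. Capitals mark CpG, the dinucleotide that DNA methylation acts on.
Dio3, chr12:110278980-110279279: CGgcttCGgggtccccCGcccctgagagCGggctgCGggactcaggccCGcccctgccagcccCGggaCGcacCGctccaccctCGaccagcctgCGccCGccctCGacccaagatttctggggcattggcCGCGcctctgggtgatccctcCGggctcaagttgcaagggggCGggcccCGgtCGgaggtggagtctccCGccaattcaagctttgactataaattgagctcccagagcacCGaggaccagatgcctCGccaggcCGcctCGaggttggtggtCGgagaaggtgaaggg
Meg3, chr12:109540746-109541045: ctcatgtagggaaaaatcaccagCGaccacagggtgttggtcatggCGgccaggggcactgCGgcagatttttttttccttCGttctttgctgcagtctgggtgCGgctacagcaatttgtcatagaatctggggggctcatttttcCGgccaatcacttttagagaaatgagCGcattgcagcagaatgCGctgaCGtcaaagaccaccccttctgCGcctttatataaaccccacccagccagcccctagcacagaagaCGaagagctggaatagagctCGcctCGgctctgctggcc
Rian, chr12:109603695-109603994: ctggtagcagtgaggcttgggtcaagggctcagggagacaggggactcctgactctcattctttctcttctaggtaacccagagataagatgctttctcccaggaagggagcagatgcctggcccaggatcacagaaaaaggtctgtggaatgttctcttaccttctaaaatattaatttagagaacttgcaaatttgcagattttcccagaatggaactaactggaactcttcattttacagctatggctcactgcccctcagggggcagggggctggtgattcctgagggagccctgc
The Dio3 window held 25 CpG, that of Meg3 13 and that of Rian none, against a median of 7 over 32851 RefSeq windows. The letters TATAAA were in the windows of Dio3 and Meg3 and in 13.6% of all windows. TGACG was in that of Meg3, not in those of Dio3 or Rian, and in 20.8% of all (both strands were searched for both). The window of Dlk1, not shown, held 9 CpG and TGACG but not TATAAA. These matches describe the letters only, and methylation was not measured here.

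The domain also holds microRNA hairpins on the plus strand in RefSeq, 14 of them inside Mirg, 3 inside Rian, 2 inside Meg3 and 6 opposite Rtl1. They give 106 mature arms with 97 distinct seeds (bases 2 to 8, in capitals), so most arms have a seed of their own. A few are shown for orientation: miR-127 and miR-433 lie opposite Rtl1, miR-370 inside Rian, miR-134, miR-154 and miR-410 inside Mirg, and miR-379-3p and miR-411-3p share a seed.
mmu-miR-127-3p: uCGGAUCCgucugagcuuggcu
mmu-miR-433-3p: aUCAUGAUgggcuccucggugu
mmu-miR-370-3p: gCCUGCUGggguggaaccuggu
mmu-miR-134-5p: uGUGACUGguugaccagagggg
mmu-miR-154-5p: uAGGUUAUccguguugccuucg
mmu-miR-410-3p: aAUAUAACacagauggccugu
mmu-miR-379-3p: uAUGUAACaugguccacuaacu
mmu-miR-411-3p: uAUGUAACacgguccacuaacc
The mRNA libraries give almost no measure of these small RNAs. Of the 61 rows named for microRNAs between Dlk1 and Dio3, 60 were at 0 in every library, and the remaining one, Mir433, had 11.5 counts summed over 10 libraries. The host transcripts below are therefore long RNAs and say nothing of mature microRNA levels.

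Dio3 was present in every library, with 28.7 to 786 estimated counts. In the photon controls its level was 12.3, 3.41, 17.8, 6.65, 14.9, 8.63, 12.2 and 13.5 CPM, in the order of deposition. After photons it was 1.63, 3.46, 1.89, 5.10, 3.64, 1.70, 1.17 and 3.84 CPM. The carbon-ion controls had 2.93, 4.57, 4.43, 2.18, 4.74, 4.47, 1.36 and 2.04 CPM, and the carbon-ion-irradiated libraries 3.73, 1.90, 6.20, 1.94, 3.78, 3.14, 1.71 and 5.76 CPM. Of the 8 photon controls, 7 were above the highest of all 24 other libraries, and the remaining one, at 3.41 CPM, lay among them.

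The group means of Dio3 were 11.2 ± 4.68 CPM (SD, n = 8) in the photon controls, 3.52 ± 1.72 in the carbon-ion-irradiated tumours, 3.34 ± 1.37 in the carbon-ion controls and 2.80 ± 1.39 in the photon-irradiated tumours. The last 3 of these, neighbours in the order, differed by less than the SD of any of them. As fitted, Dio3 was 1.98 lower (log2 fold change of -1.98, SE 0.34) after photons than in the photon controls, and 1.74 lower (-1.74, SE 0.34) in the carbon-ion controls. After carbon ions the log2 fold change was 0.07 (SE 0.34). These values describe the choice of the gene. The spread of Dio3 within groups was wide, with an SD of log2 CPM between 0.67 and 0.77, where the median gene had between 0.29 and 0.39.

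**Figure D1:**
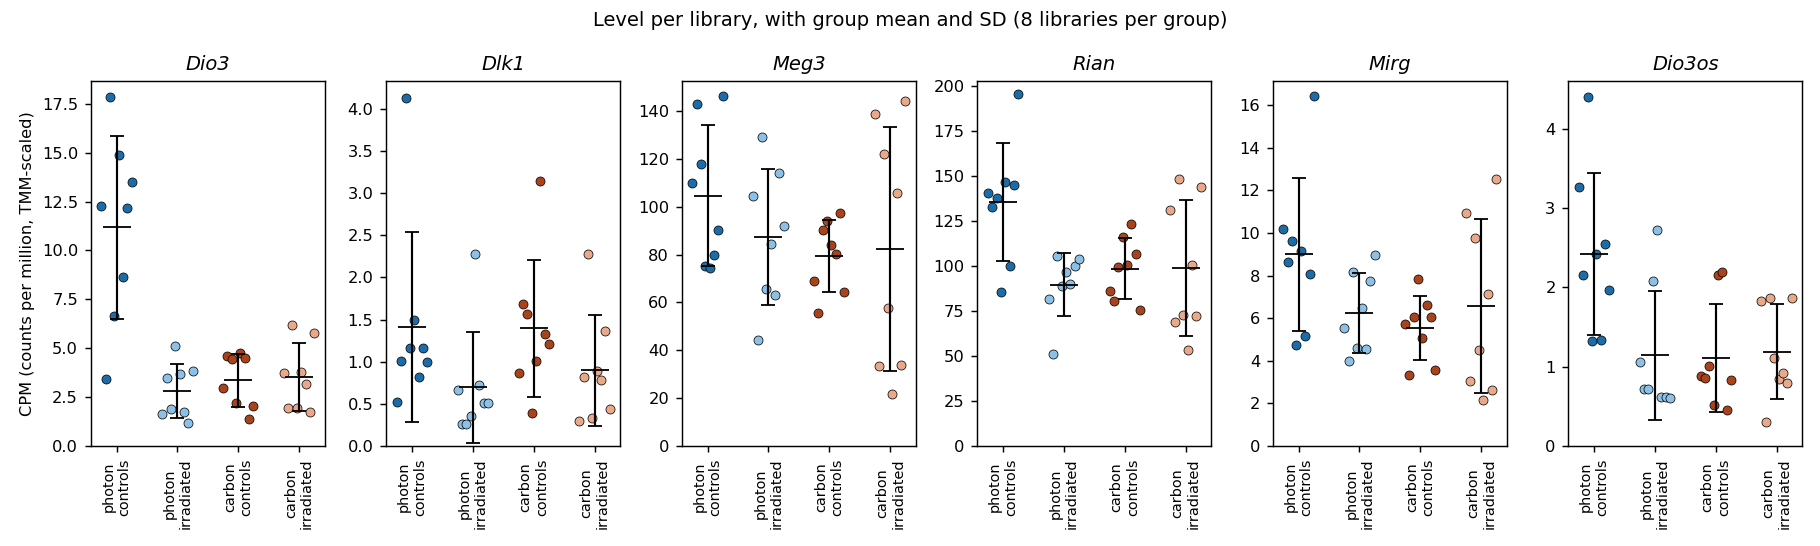
Level of each gene in CPM (vertical axes, each from 0) in every library, by group, with the group mean and SD as bars. For Dio3, 7 of the 8 photon controls stand above all other libraries, while for Rian 6 of the 8 are above the highest photon-irradiated library and 6 above the highest carbon-ion control. The groups overlap for Dlk1, Meg3, Rian and Mirg, and for Dio3os, the antisense neighbour of Dio3.

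None of the other 4 genes passed the threshold (adjusted p under 0.05) in any of the 5 comparisons of the groups. By edgeR's quasi-likelihood test with Benjamini-Hochberg adjustment over 20474 genes, the share of all genes called was 3.81% for photons against their controls, 9.14% for the carbon-ion controls against the photon controls, 5.08% for carbon-ion-irradiated against photon-irradiated tumours, 0.0781% for the difference between the effects of the beams and 0% for carbon ions against their controls. With 4 genes and such shares, 0 called is near the background and is not a result about the domain. The comparisons with the photon controls share those libraries, so a low value in both is not 2 separate observations.

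Rian had the smallest p of the 4 genes. Its photon controls had 141, 133, 138, 85.4, 146, 99.9, 145 and 196 CPM, and the photon-irradiated libraries 81.7, 51.2, 105, 88.6, 96.5, 90.2, 99.8 and 104 CPM. All 8 irradiated libraries were below the median of the controls, and 6 controls were above the highest irradiated library. The log2 fold change after photons was -0.60 (SE 0.18, adjusted p = 0.0588, edgeR). The call depended on the fit: the adjusted p was 0.0315 with DESeq2 (7.74% of genes called) and 0.0376 with only the photon libraries in the edgeR fit (4.41% called), was under the threshold in 6 of the 32 fits without a given library, and was 0.244 with the skeletal muscle score as a covariate (log2 fold change -0.44).

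In the carbon-ion arm Rian had 75.4 to 123.5 CPM in the controls (median 99.96) and 53.2 to 148 in the irradiated tumours (median 86.4), with a log2 fold change of 0.00 (SE 0.18, adjusted p = 0.999, edgeR). The carbon-ion controls were all below the median of the photon controls, at -0.46 (SE 0.18, adjusted p = 0.114). The difference between the effects of the beams was 0.60 (SE 0.26, adjusted p = 0.323).

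Mirg lay lower than Rian and, like it, was highest on average in the photon controls, while the other 3 groups came in another order than for Rian. Its photon controls had 10.2, 8.66, 9.60, 4.75, 9.17, 5.15, 8.09 and 16.4 CPM, and the photon-irradiated libraries 5.52, 3.97, 8.16, 4.57, 6.49, 4.53, 7.75 and 8.94 CPM, with a log2 fold change of -0.53 (SE 0.30, adjusted p = 0.308, edgeR). Leaving out each library gave -0.62 to -0.35 after photons, the latter without photon control replicate 8, the library at 16.4 CPM. With the skeletal muscle score as a covariate the value after photons was -0.33. The carbon-ion controls ranged from 3.32 to 7.83 CPM, all below the median of the photon controls (log2 fold change -0.71, SE 0.30, adjusted p = 0.144, edgeR). The carbon-ion-irradiated tumours ranged from 2.13 to 12.5 CPM.

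Meg3, the first non-coding RNA of the maternal unit, overlapped between all groups. It had 74.3 to 146 CPM in the photon controls (median 100.3), 44.3 to 129 after photons (median 88.2), 55.5 to 97.4 in the carbon-ion controls (median 82.1) and 21.7 to 144 after carbon ions (median 81.8). The log2 fold change was -0.27 (SE 0.29, adjusted p = 0.636, edgeR) after photons and -0.40 (SE 0.29, adjusted p = 0.432) between the controls. The value after photons ran from -0.36 to -0.17 when each library was left out, and was -0.16 with the skeletal muscle score as a covariate. All 8 carbon-ion controls were again below the median of the photon controls, and 4 photon controls were above the highest of them.

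Dlk1 was scarce, with 4.37 to 182 estimated counts per library. It was at 0.522, 1.01, 4.13, 1.16, 1.50, 0.815, 1.16 and 0.995 CPM in the photon controls and at 0.660, 0.252, 0.261, 0.347, 2.28, 0.721, 0.504 and 0.510 CPM after photons. In 7 of the 8 irradiated libraries the level was below the control median, with a log2 fold change of -1.03 (SE 0.47, adjusted p = 0.194, edgeR). Without photon-irradiated replicate 5, the library at 2.28 CPM, it was -1.60 (adjusted p = 0.0429), and without photon control replicate 3, the library at 4.13 CPM, -0.55. The carbon-ion controls (0.388 to 3.14 CPM) differed from the photon controls by -0.03 (SE 0.46, adjusted p = 0.980, edgeR). After carbon ions the log2 fold change of Dlk1 was -0.61 (SE 0.46, adjusted p = 0.996, edgeR) and did not pass. It was -0.33 without carbon-ion control replicate 6, -0.96 without carbon-ion-irradiated replicate 3 and -1.09 in M-titled libraries. The SE of Dlk1 was the widest of the 4 genes in each comparison.

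Per kb of exon, the order of levels in the photon controls was Rian with 7.43 ± 1.81 CPM per kb (SD, n = 8), Meg3 with 5.79 ± 1.62, Dio3 with 5.51 ± 2.31, Mirg with 1.23 ± 0.49 and Dlk1 with 0.25 ± 0.20. Neighbours among the first 3 of these differed by no more than the larger of their SDs. In the photon-irradiated libraries Dio3, at 1.38 ± 0.69, was below Rian at 4.92 ± 0.96 and Meg3 at 4.82 ± 1.58. These values use the union of annotated exons, which is longer than most transcripts of Meg3 and Rian, so they are lower for these genes than per transcript.

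**Figure D2:**
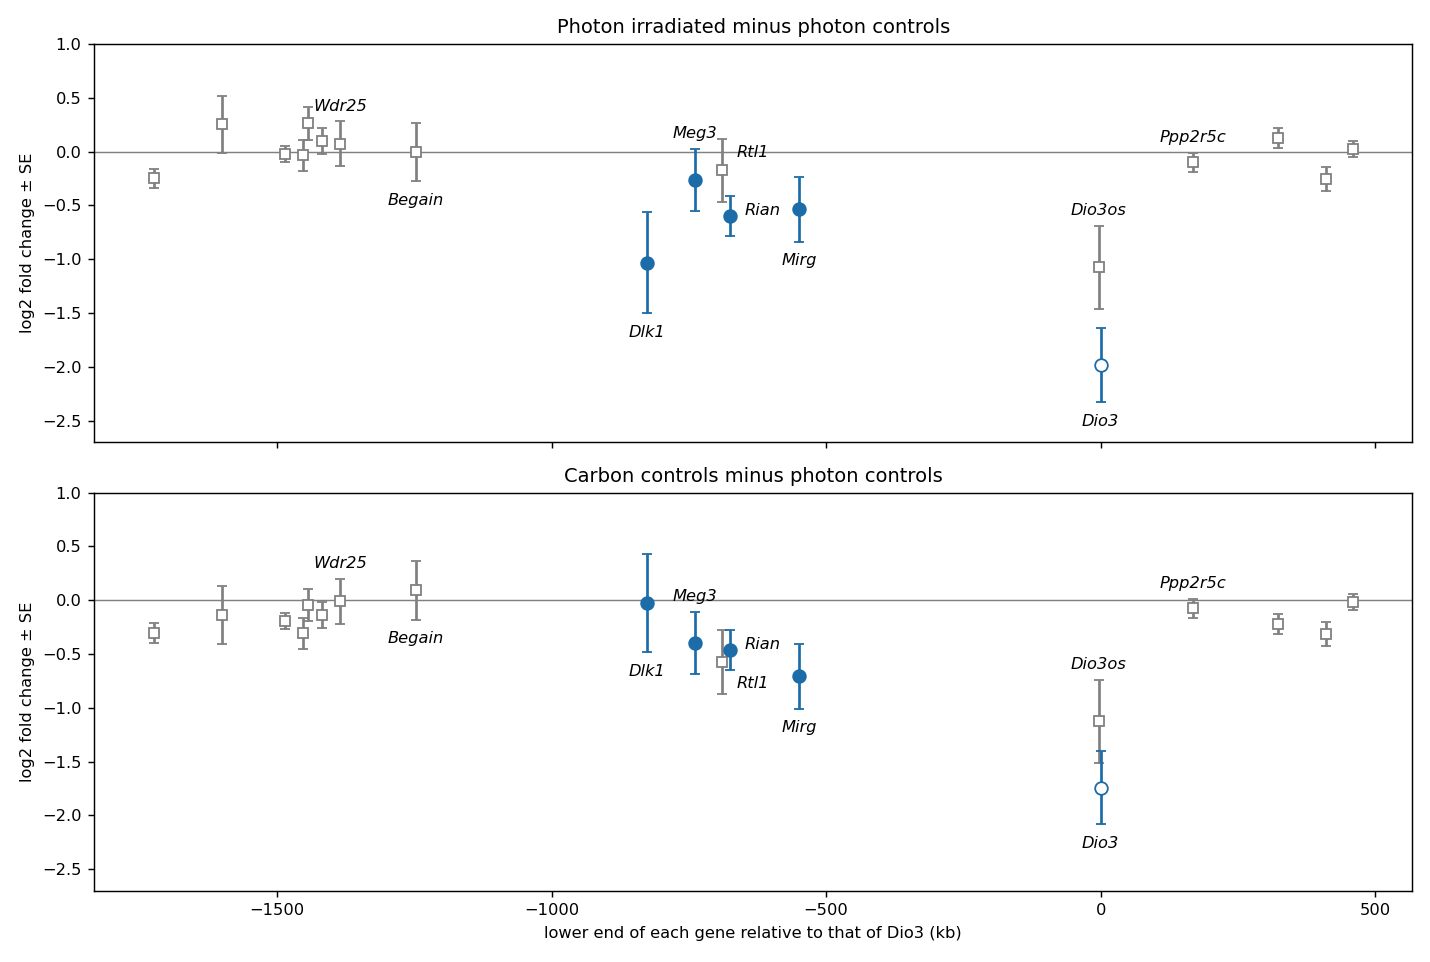
Log2 fold change with its SE (vertical axes) against the position of the lower end of each gene relative to Dio3 in kb (horizontal axis), for photon-irradiated minus photon control libraries (upper plot) and carbon-ion minus photon controls (lower plot). Blue circles are the 5 genes (open for Dio3, which was chosen by these values), grey squares other genes of the region; the values between Meg3 and Mirg lie between -0.17 and -0.71, and those of the 12 genes outside the domain between -0.25 and 0.26 in the upper plot and between -0.32 and 0.09 in the lower one; 3 of the 12 are named.

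The remaining genes of the region gave the setting. Rtl1, a retrotransposon-derived gene needed in the placenta, overlaps transcription from the opposite strand, and Dio3os is a non-coding RNA transcribed away from Dio3. The handling of strand in the counting is not given in the sources used here, so reads of these genes and of their opposite strand cannot be told apart. Rtl1 was at 10.4 ± 3.05 CPM in the photon controls, 9.24 ± 3.50 after photons, 6.97 ± 2.0 in the carbon-ion controls and 7.83 ± 4.67 after carbon ions. Its log2 fold changes were -0.17 (SE 0.30, adjusted p = 0.778) after photons and -0.57 (SE 0.30, adjusted p = 0.244) between the controls (edgeR).

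Dio3os, like Dio3, was highest on average in the photon controls. It was at 3.27, 2.15, 4.40, 1.32, 2.43, 1.33, 2.55 and 1.96 CPM in the photon controls and at 1.06, 0.711, 0.718, 2.08, 2.73, 0.618, 0.610 and 0.600 CPM after photons. The carbon-ion controls had 0.453 to 2.19 CPM and the carbon-ion-irradiated tumours 0.293 to 1.86. The log2 fold change was -1.08 (SE 0.38, adjusted p = 0.0973, edgeR) after photons and -1.13 (SE 0.38, adjusted p = 0.0593) between the controls, and neither passed the threshold. With group means removed, its Pearson r with Dio3 over the 32 libraries was 0.64, a value given as a description.

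Over the 18 tested genes of the domain and its flanks other than Dio3, none was called after photons (median log2 fold change -0.07, against -0.00 over all genes). Between the controls, where 4.01% of all genes were lower, 1 was, Evl, an actin regulator far outside the domain (-0.30, SE 0.09, adjusted p = 0.0288, edgeR), and the median was -0.21 against -0.02 over all genes, with 17 of the 18 below 0. Between the irradiated groups, where 1.54% of all genes were lower, 1 was, the dynein heavy chain gene Dync1h1 (-0.31, SE 0.09, adjusted p = 0.0439, edgeR), also outside the domain, and none was called in the other comparisons. The 12 genes outside the domain ran from -0.25 (Hsp90aa1, SE 0.11) to 0.26 (Slc25a47, SE 0.15) after photons and from -0.32 (Hsp90aa1, SE 0.11, adjusted p = 0.0685, edgeR) to 0.09 between the controls. After photons Hsp90aa1 was thus farther from 0 than Rtl1. Of these, Yy1, which encodes a transcription factor, differed by -0.02 (SE 0.07) after photons and -0.19 (SE 0.07, adjusted p = 0.103) between the controls, Ppp2r5c, a phosphatase subunit, by -0.10 (SE 0.09) and -0.07 (SE 0.09), and Begain by -0.00 (SE 0.27) and 0.09 (SE 0.28).

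Tumours of the same group also differed from each other. With group means removed, Meg3, Rian and Mirg rose and fell together over the 32 libraries. Pearson's r was 0.84 between Meg3 and Rian, 0.91 between Meg3 and Mirg and 0.92 between Rian and Mirg, and Spearman's rho was 0.76, 0.87 and 0.92. Each had an adjusted p of 0.00015 for Pearson's r over 75 pairs, from 100000 two-sided permutations of libraries within groups, whose smallest possible unadjusted p is 1e-05, and adjusted permutation p of 0.00075, 0.000187 and 0.000187 for rho. Without the 2 libraries farthest from the median of the first gene named, r was 0.80, 0.88 and 0.92. In the single groups of 8 libraries r was 0.63 to 0.95, 0.73 to 0.99 and 0.76 to 0.97 for these pairs. Rtl1, on the minus strand, varied with them as well. As a description, its r was 0.94 with Meg3, 0.89 with Rian and 0.93 with Mirg, and it was the gene most like Meg3 and most like Mirg.

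The ratio of Mirg to Rian was 0.0646 ± 0.0107 (SD, n = 8) in the photon controls, 0.0694 ± 0.0129 after photons, 0.0555 ± 0.0093 in the carbon-ion controls and 0.0612 ± 0.0194 after carbon ions, where it ran from 0.0361 to 0.0870. The ratio of Rian to Meg3 was 1.33 ± 0.32, 1.08 ± 0.24, 1.25 ± 0.16 and 1.50 ± 0.61 in the same order of groups, and ran from 0.943 to 2.45 after carbon ions. For Dio3 and Dlk1 no r with these 3 genes passed. The r of Dio3 was 0.10 with Meg3, 0.31 with Rian and 0.29 with Mirg, with adjusted permutation p of 0.781, 0.280 and 0.288, and 0.22 with Dlk1 (adjusted permutation p = 0.478). In the carbon-ion-irradiated group the r of Dio3 with the same 3 genes was 0.62, 0.71 and 0.69, and in the other groups it was between -0.52 and 0.45. Whether these r differ from those among Meg3, Rian and Mirg was not tested. Dlk1 had r of -0.11, 0.08 and -0.11 with Meg3, Rian and Mirg (adjusted p of at least 0.772).

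For Meg3, Rian and Mirg the widest spread was in the carbon-ion-irradiated tumours. There Meg3 was at 139, 33.2, 122, 57.8, 21.7, 106, 33.9 and 144 CPM. The 4 highest of these, from 106 to 144 CPM, were also the 4 highest for Rian (100.2 to 148 CPM, against 53.2 to 72.5 in the others), for Mirg (7.11 to 12.5 against 2.13 to 4.47) and for Rtl1 (9.58 to 13.4 against 2.41 to 5.83). They shared 3 of their 4 libraries with the highest for Dio3 and 1 of 4 with the highest for Dlk1. Of the 4, 2 had D titles. They were also the 4 highest for the score of a list of 8 RNAs that stay in the nucleus, added after the patterns were seen (5.82 to 6.38 log2 CPM, against 4.35 to 5.63 in the others). Within this group the r of that score was 0.95 with Meg3, 0.92 with Rian and 0.93 with Mirg, and its part in their spread was not tested. The SD of log2 CPM of Meg3 in this group was 1.08, above that of 94.2% of all tested genes, against 0.29 in the carbon-ion controls, where 49.9% of genes had a smaller one.

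**Figure D3:**
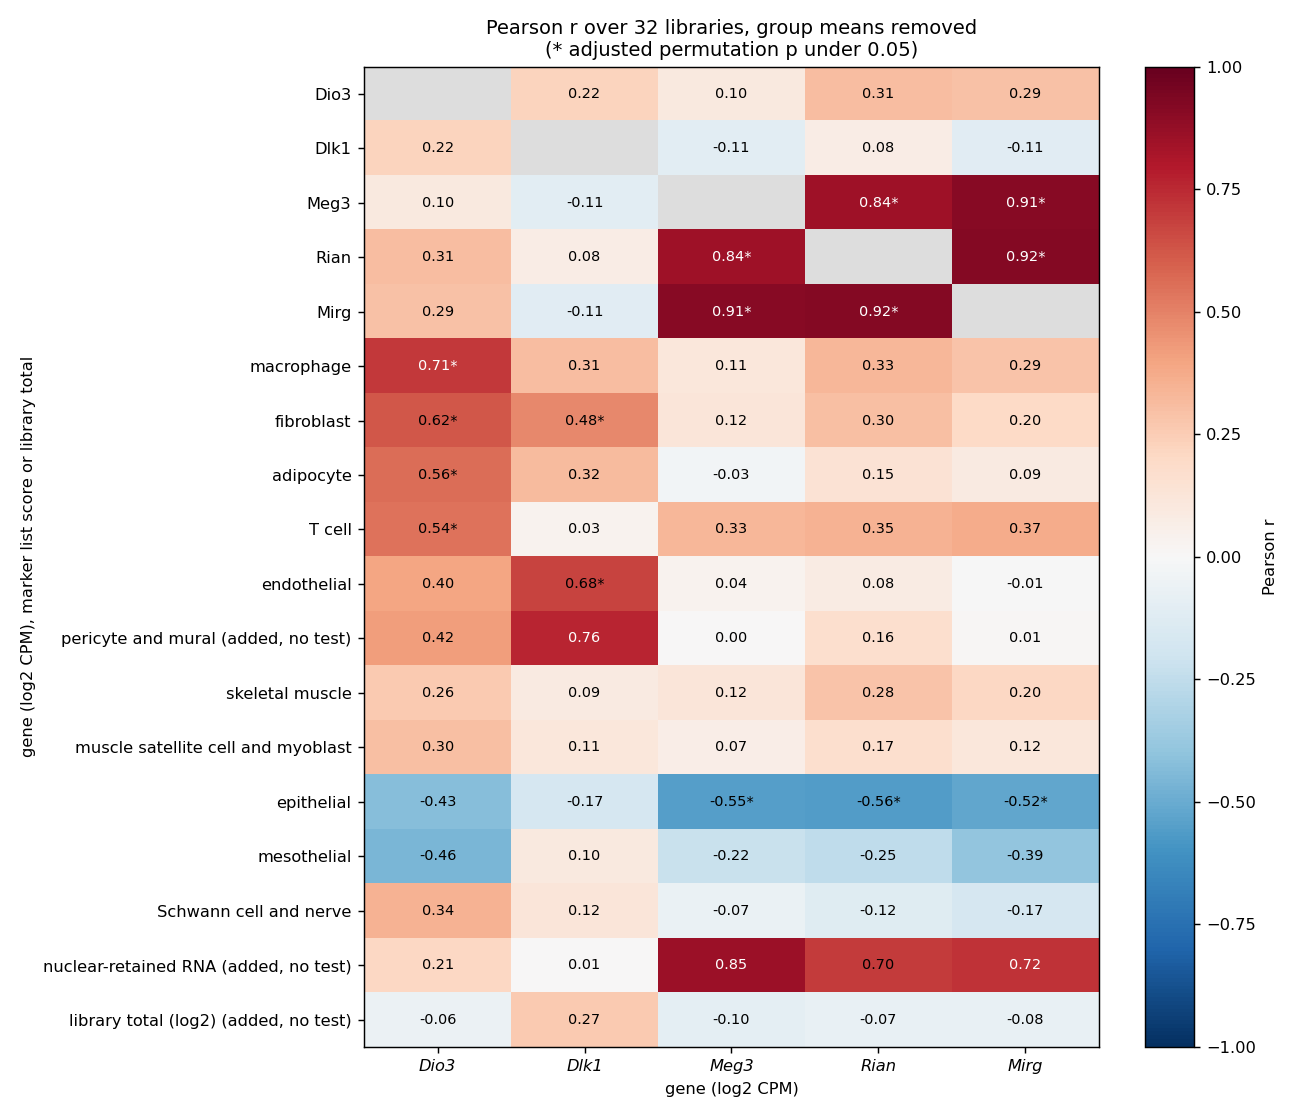
Pearson r over 32 libraries after removal of group means, between the 5 genes (columns) and each other, the scores of marker lists and the library total (rows); colour gives r from -1 to 1, and stars mark an adjusted permutation p under 0.05. Meg3, Rian and Mirg form a block with r from 0.84 to 0.92, and Dio3 has r = 0.71 with the macrophage score. The nuclear-retained RNA list, the pericyte and mural list and the library total were added after the patterns were seen and carry no stars.

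Marker scores, the mean log2 CPM of fixed lists, were set against each gene in the same way. Within groups Dio3 went with the macrophage score (r = 0.71, rho = 0.81, adjusted permutation p = 0.00025 and 0.000187) and the fibroblast score (r = 0.62, rho = 0.64, adjusted permutation p = 0.00285 and 0.00268). It also went with the adipocyte score (r = 0.56, rho = 0.58, adjusted permutation p = 0.00825 and 0.0045) and the T cell score (r = 0.54, rho = 0.63, adjusted permutation p = 0.0121 and 0.00272). For macrophages r was 0.75 without the 2 farthest libraries, 0.71 in the M-titled libraries and between 0.63 and 0.89 in the single groups. The genes whose within-group pattern was most like that of Dio3, among 11536 genes of sufficient level, were Sirpa (r = 0.86), Mrc1 (0.85), Bmper (0.83), Cfp (0.83) and Tgfbi (0.83). Sirpa and Mrc1 encode myeloid receptors, and Mrc1 is itself one of the macrophage markers.

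Over all 32 libraries with group differences kept, Rab8b (r = 0.83), S1pr2 (0.83), Anxa6 (0.83), Eif4e3 (0.83) and Vcan (0.82) were most like Dio3, as a description of the same group pattern. In the photon effect and between the controls these 5 had log2 fold changes of -0.58 and -0.40 for Rab8b, -0.38 and -0.25 for S1pr2, -0.68 and -0.45 for Anxa6, -0.62 and -0.73 for Eif4e3 and -0.73 and -0.71 for Vcan, all smaller than those of Dio3. Vcan encodes the matrix proteoglycan versican. Dio3os was itself below the level required of the ranked genes (a mean log2 CPM of at least 2). By its r it would take place 36 with group differences kept (r = 0.77). With group means removed it would take place 253 against 11536 genes (r = 0.64).

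The marker levels moved in part with the groups. The summed level of the 10 macrophage markers was 608 to 1063 CPM in the photon controls, 402 to 773 after photons, 723 to 1015 in the carbon-ion controls and 684 to 1139 after carbon ions. Of the 10 macrophage markers, 2 were lower after photons (2.1% of all genes were), Csf1r (-0.54, adjusted p = 0.0260) and Mrc1 (-0.77, adjusted p = 0.0431, edgeR), and none was called between the controls. The 12 fibroblast markers summed to 13133 to 28187 CPM in the photon controls, 9759 to 17903 after photons, 6684 to 17852 in the carbon-ion controls and 6061 to 22074 after carbon ions. All 12 had values below 0 both after photons (median -0.52) and between the controls (median -0.50, against -0.02 over all genes), with 2 of 12 called in each, where 3.81% and 9.14% of all genes were: Pdgfrb (-0.52) and Fap (-0.59) after photons, and Pdgfra (-0.77) and Col1a2 (-0.59) between the controls. The 10 T cell markers summed to 10.6 to 18.1 CPM in the photon controls (median 15.4), 6.85 to 12.2 after photons (median 9.85), 8.90 to 21.9 in the carbon-ion controls (median 11.4) and 7.34 to 17.3 after carbon ions (median 11.9). After photons Cd2 (-1.65, adjusted p = 0.0265) and Cd3d (-1.99, adjusted p = 0.0413) were lower and Cd8a (1.23, adjusted p = 0.0453, edgeR) higher, 3 of 10, and none was called between the controls. The adipocyte list summed to medians of 77.5, 71.0, 89.6 and 87.7 CPM in the same order of groups, with none of its 9 tested genes called. The part of these lists in the level of Dio3 was not tested.

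The skeletal muscle genes had a median log2 fold change of -2.84 after photons, with none of 20 called and summed levels that overlapped between the groups. Their score had r of 0.26 with Dio3, 0.09 with Dlk1, 0.12 with Meg3, 0.28 with Rian and 0.20 with Mirg, and none passed (adjusted permutation p of at least 0.306). With that score as a covariate, the fitted log2 fold change of Dio3 was -1.80 after photons and -1.73 between the controls.

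Dlk1 went with markers of blood vessels. Its r was 0.68 with the endothelial score (adjusted permutation p = 0.0025), with a rho of 0.47 (adjusted permutation p = 0.0512) and an r of 0.48 without the 2 farthest libraries. The 10 endothelial markers summed to 344 to 708 CPM in the photon controls (median 384), 251 to 609 after photons (median 279), 233 to 461 in the carbon-ion controls (median 292) and 232 to 450 after carbon ions (median 310). Emcn (-0.55, adjusted p = 0.0203) and Tek (-0.91, adjusted p = 0.0356) were lower after photons and Emcn (-0.49, adjusted p = 0.0187, edgeR) between the controls, where 2.1% and 4.01% of all genes were. With the fibroblast score the r of Dlk1 was 0.48 and rho 0.35 (adjusted permutation p = 0.0394 and 0.189). The genes most like it were Ramp2 (r = 0.73), Afap1l1 (0.72) and Abcc9 (0.71), of which Ramp2 is a receptor partner in endothelium and Abcc9 a pericyte channel subunit. A pericyte and mural list was then added, after this was seen and with Abcc9 among its 8 genes, and gave r = 0.76 and rho = 0.63, with r = 0.64 without the 2 farthest libraries. Since it was chosen on these values, it is a description with no test. This list summed to 344 to 561 CPM in the photon controls, 199 to 400 after photons, 251 to 602 in the carbon-ion controls and 248 to 770 after carbon ions, and the part of the vessel lists in the value of Dlk1 after photons was not tested.

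Meg3, Rian and Mirg went down as the epithelial score went up, with r of -0.55, -0.56 and -0.52 (adjusted permutation p of 0.0394, 0.0241 and 0.0484). When p was adjusted over the 60 pairs without the lists added after the patterns were seen, that of Mirg was 0.0516 and no other call by r or rho among the 60 changed. By rho, at -0.48, -0.51 and -0.47, none passed (adjusted permutation p from 0.0504 to 0.0904). For Dio3 and the epithelial score r was -0.43 and rho -0.47, and neither passed (adjusted permutation p = 0.0853 and 0.0611). The score of 4 mesothelial genes passed with Mirg by rho (-0.50, adjusted permutation p = 0.0382) and not by r (-0.39, adjusted permutation p = 0.0895). With Dio3 that score had r = -0.46 and rho = -0.41, and neither passed (adjusted permutation p = 0.0611 and 0.103). In the carbon-ion-irradiated group the r of Meg3, Rian and Mirg with the epithelial score was -0.78, -0.84 and -0.84, and in the other groups it was between -0.03 and -0.53. The most alike genes outside the domain were Zc3h7a for Meg3 (r = 0.87) and Dnm3os, a non-coding RNA of mesenchymal cells, for Rian (0.86). The list of 8 nuclear RNAs, Malat1 and Neat1 among them, was also chosen after the patterns were seen. Over all 32 libraries its r was 0.85 with Meg3, 0.70 with Rian and 0.72 with Mirg (rho 0.81, 0.58 and 0.64) and 0.21 with Dio3, again as a description. That list summed to 9217 to 20892 CPM in the photon controls, 11480 to 29070 after photons, 7521 to 18805 in the carbon-ion controls and 4626 to 20852 after carbon ions. None of the 5 genes went with the library total (r from -0.10 to 0.27).

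**Figure D4:**
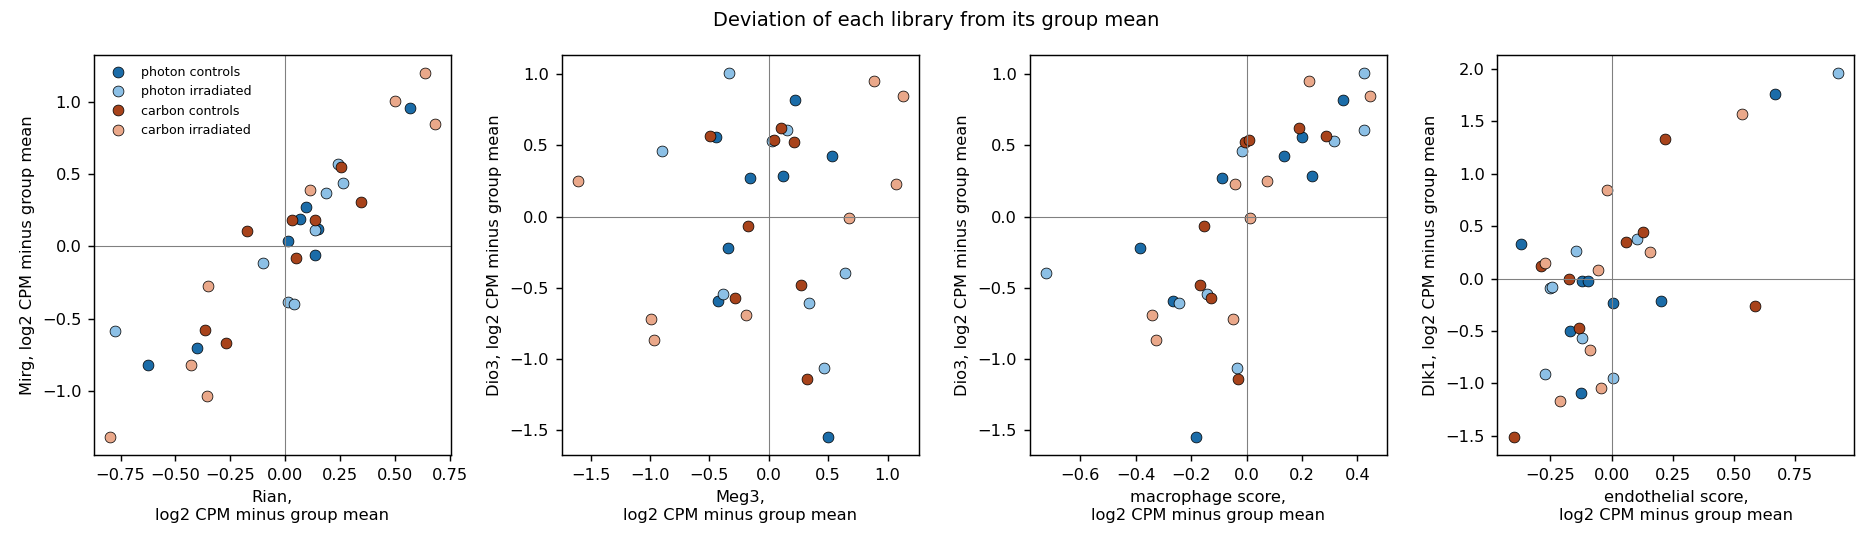
Each point is a library, placed by the deviation of its log2 CPM or marker score from its group mean on both axes; colours give the 4 groups. Mirg follows Rian (r = 0.92), Dio3 against Meg3 has r = 0.10, Dio3 rises with the macrophage score (r = 0.71), and Dlk1 has r = 0.68 with the endothelial score.

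The partners of Dio3 in the thyroid hormone pathway were measured as well. Deiodinases activate or inactivate the hormone, transporters carry it into cells, and the nuclear receptors Thra and Thrb act on target genes. Of 32 tested genes other than Dio3, 2 were higher and 1 lower after photons, with a median of 0.10 against -0.00 over all genes. Between the controls 4 were higher and 3 lower (median 0.11 against -0.02), between the irradiated groups 2 higher and 2 lower, and none was called in the other comparisons. Over all genes the shares called higher and lower were 1.71% and 2.1% after photons, 5.13% and 4.01% between the controls, and 3.55% and 1.54% between the irradiated groups.

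Dio2, the activating deiodinase, had 2.69 CPM on average in the photon controls, 1.07 after photons, 2.61 in the carbon-ion controls and 2.14 after carbon ions, with a log2 fold change after photons of -1.30 (SE 0.59, adjusted p = 0.194, edgeR). Dio1 was near the limit of measurement, at a median of 0.276 CPM and at 0 in 2 libraries. The transporter gene Slc16a10 was lowest in the photon controls (20.9 CPM), with 30.5 after photons and 36.9 and 34.9 in the carbon-ion controls and irradiated tumours. Its log2 fold change was 0.54 (SE 0.12, adjusted p = 0.0137) after photons and 0.82 (SE 0.12, adjusted p = 0.000297) between the controls. Slc7a8, an amino acid transporter gene, was the 1 lower after photons (15.8 CPM in the photon controls, 9.82 after photons, log2 fold change -0.69, SE 0.18, adjusted p = 0.0260, edgeR). Ttr, a carrier of thyroid hormone and retinol, was lowest in the photon controls like Slc16a10, with 8.01, 18.3, 21.2 and 20.4 CPM (log2 fold changes 1.19 and 1.40, adjusted p = 0.0417 and 0.00879, edgeR).

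The receptors did not pass in the photon effect, with values of 0.12 (SE 0.11) for Thra and 0.44 (SE 0.19, adjusted p = 0.168) for Thrb. Among known target genes, Klf9 differed by 0.22 (SE 0.12, adjusted p = 0.298) after photons and -0.09 (SE 0.12) between the controls. Hr, which encodes a receptor co-repressor and is a target, and Bcl3 were lower in the carbon-ion than in the photon controls, at -0.91 (SE 0.28, adjusted p = 0.0318) and -0.35 (SE 0.08, adjusted p = 0.00862, edgeR). The 7 genes that passed between the controls also held Med1, a co-activator gene, at -0.27 (adjusted p = 0.0201, edgeR) and Sephs2, which serves the making of selenoproteins such as the deiodinases, at 0.45 (adjusted p = 0.0333, edgeR).

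Hedgehog signalling and hypoxia are known inducers of Dio3 in other tissues. Of 17 hedgehog genes, none was called after photons (median -0.16, against -0.00 over all genes), and between the controls 1 of 17 was higher, where 5.13% of all genes were, a share near the background: the ligand gene Ihh (0.96, SE 0.28, adjusted p = 0.0274, edgeR). The pathway's readout genes gave -0.50 (SE 0.36, adjusted p = 0.437) for Gli1 and 0.20 (SE 0.08, adjusted p = 0.154) for Ptch1 after photons, and -0.07 (SE 0.36) and 0.17 (SE 0.08, adjusted p = 0.224) between the controls. Gli2 was at -0.48 (SE 0.17, adjusted p = 0.0997) and -0.51 (SE 0.17, adjusted p = 0.0583, edgeR).

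Of 16 hypoxia genes, none was called after photons (median 0.48) or carbon ions (median 0.56, against 0.01 over all genes). Between the controls, where 4.01% of all genes were lower, 2 were, the transcription factor genes Hif1a, at -0.57 (SE 0.11, adjusted p = 0.00181), and Epas1, at -0.64 (SE 0.20, adjusted p = 0.0392, edgeR), while the list's median was 0.07. The induced gene Pgk1 was at 0.57 (SE 0.21, adjusted p = 0.0852) between the controls. Between the irradiated groups, where 3.55% of all genes were higher, 2 were, Pgk1 (0.74, SE 0.21, adjusted p = 0.0386) and Higd1a (0.61, SE 0.17, adjusted p = 0.0370, edgeR).

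Imprinted genes of other chromosomes served as a comparison. Of 37 tested, 2 were higher after photons, where 1.71% of all genes were: Igf2r (0.42, SE 0.11, adjusted p = 0.0241), a receptor that clears insulin-like growth factor 2, and Rasgrf1 (1.40, SE 0.37, adjusted p = 0.0322, edgeR), and none was lower. Between the controls, where 5.13% of all genes were higher, 2 were, Igf2r (0.50, SE 0.11, adjusted p = 0.00333) and Trappc9 (0.25, SE 0.08, adjusted p = 0.0409), and between the irradiated groups, where 3.55% of all genes were higher, 1 was, Commd1 (0.67, adjusted p = 0.0292, edgeR). The list's medians were -0.25 after photons and -0.10 between the controls. H19 and Igf2, the best known imprinted pair, had wide ranges over the libraries (10.01 to 467 CPM and 0.587 to 87.0 CPM) and did not pass, with -0.65 (SE 0.54) and -1.27 (SE 0.77) after photons.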

How the data were processed

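The authors deposited 1 table of estimated counts, with gene symbols as rows and 32 libraries as columns; FastQC 0.12.0, Trimmomatic 0.32, RSEM 1.3.3 and the build mm10 are named in the submitters' processing notes, and the handling of strand is not given in the sources used here. RSEM shares reads among transcripts, so the counts are not whole. The tests were planned for counts; values were rounded, which changed library totals by at most 0.00403%. Columns were matched to libraries by title, and groups follow the treatment label.

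In R 4.3.3, edgeR 4.0.16 (filterByExpr with a minimum count of 10, TMM scaling, glmQLFit and glmQLFTest) fitted 1 model of 4 groups to 20474 genes, with 5 contrasts, Benjamini-Hochberg adjustment over all genes and a threshold of 0.05. SE came from the F statistic. CPM use TMM-scaled totals, and log2 CPM a prior count of 2. Within-group correlations used log2 CPM minus group means and 100000 permutations within groups (numpy 2.4.6). DESeq2 1.42.0, upper-quartile scaling, no filter, fits of the groups compared or of M-titled libraries, a muscle covariate, a prior count of 0.5 and leaving out each library were alternatives. The fit was tested on simulated data.

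Positions and exon lengths are from GENCODE M21, and the windows at gene starts and the microRNAs are from RefSeq (GRCm38.p6). All 5 genes matched in GENCODE. Scores used marker lists with at least 3 tested genes, which left out the islet and acinar lists. The members and all lists were chosen with earlier results of these data known. Named genes were the 5, tested genes of the region, 12 preset pathway genes, up to 4 called genes per list, and the most alike genes by Pearson r at a mean log2 CPM of at least 2; predicted genes were passed over. Other genes of the pathway lists are given as counts. The values of 1 gene that this rule names are not reported here.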

Additional observations from a re-analysis of the deposited data

Results flagged for a closer look

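Each value here is the highest or lowest of 8 libraries of a group and lies far from the next one, by Dixon's criterion. In all, 28 groups were examined (7 genes in 4 groups). Chance alone marks about 1 in 20 where values are normally distributed, which was not tested here. The criterion was applied to CPM, not to log2 CPM, so the number marked depends on that scale. Dlk1 accounts for 3 of the 5: photon control replicate 3 at 4.13 CPM (next 1.50), photon-irradiated replicate 5 at 2.28 (next 0.721) and carbon-ion control replicate 6 at 3.14 (next 1.68). Rian was lowest at 51.2 CPM in photon-irradiated replicate 2 (next 81.7), and Mirg was highest at 16.4 CPM in photon control replicate 8 (next 10.2). These 5 libraries held 33741258 to 44935499 estimated counts, against 13891863 to 71645903 over all 32.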

How the results depend on the processing

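No paired analysis was possible because the labels give no replicate numbers. The number of Dlk1, Meg3, Rian and Mirg called after photons was 0, but 1 (Rian) with DESeq2 and with only the photon libraries in the fit, and 0 to 1 without a given library: Rian without photon control replicate 2, 4 or 6 or carbon-ion-irradiated replicate 3, 5 or 8, and Dlk1 without photon-irradiated replicate 5. Between the controls it was 0, and 1 (Rian) with only the control libraries in the fit. Log2 fold changes near 0 changed sign. For carbon ions, Rian (0.00401) was -0.0012 with no filter, -0.00687 with the muscle covariate and -0.19 in M-titled libraries, and Meg3 (0.05) -0.16 in M-titled libraries. In the same libraries Dlk1 was 0.25 between the controls (-0.03) and -0.0647 in the difference of effects (0.42). Between the irradiated groups, Rian (0.14) was -0.0162 with the covariate and -0.00268 in M-titled libraries, and Mirg (0.08) -0.14 and -0.11. Leaving out each library gave -0.11 to 0.0851 for Rian, -0.12 to 0.18 for Meg3 and -0.10 to 0.17 for Dio3 (lowest without carbon-ion-irradiated replicate 3) after carbon ions, -0.30 to 0.46 for Dlk1 between the controls, -0.0631 to 0.98 for Dlk1 in the difference, and -0.25 to 0.0542 for Meg3 and -0.12 to 0.20 for Mirg between the irradiated groups. In the 7 D-titled libraries, a set added after the data were seen, 36 of 75 r moved by more than 0.192 and 11 changed sign, 1 of them a pair that had passed: the r of the epithelial score went to 0.0743 with Mirg (-0.52), -0.13 with Meg3 (-0.55) and -0.13 with Rian (-0.56). The r of Dio3 with Meg3 (0.10) was 0.55 there. In M-titled libraries 1 of 75 moved as far and 11 changed sign, none of them a pair that had passed. The fitted value of Dio3 stayed between -2.16 and -1.80 after photons and between -1.88 and -1.60 between the controls under every alternative run. The cause of these changes was not tested.

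Counts over all genes moved more. After photons, 781 genes became 431 with no filter (38319 genes tested), 262 with the muscle covariate, 1524 with DESeq2, and 239 to 1656 when a library was left out (lowest for photon control replicate 3, highest for replicate 2). With upper-quartile scaling, 351 higher and 430 lower became 566 and 394. After carbon ions, the count of 0 in edgeR (1177 genes at an unadjusted p under 0.05) became 17 with DESeq2 and 0 to 5 without a given library. For the difference of effects, 16 became 94 with upper-quartile scaling, 4 with no filter, 7 with the covariate, 1 in M-titled libraries, 262 with DESeq2 and 5 to 108 without a given library. Between the controls, 1871 became 973 in M-titled libraries and 1178 to 2196 without a given library. Between the irradiated groups, 1041 became 319 with no filter, 3 with the covariate, 57 with only these groups, 1947 with DESeq2 and 108 to 2159 without a given library, and 726 higher and 315 lower became 519 and 537 with upper-quartile scaling. Dlk1 had as few as 4.37 estimated counts in a library (median 28.1), and the part of depth in its spread was not tested.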
